A study of Mus musculus with 3 samples.

Results

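H3K36me3, the trimethylation of histone H3 that marks transcribed gene bodies, was described over 10 imprinted genes in fully-grown mouse oocytes. The genes were Mest, Peg3, Snrpn, Plagl1, Grb10, Peg10, Impact, Nnat, Zrsr1 and Commd1, chosen by name because a promoter in each gene or its transcription unit gains DNA methylation in the oocyte. Every 2 kb window that overlapped an annotated gene body (GENCODE M21, GRCm38) or the 20 kb on either side was taken, which gave 440 of the 1186323 valid windows. The oocytes were at the germinal vesicle (GV) stage, from wildtype C57BL6/Babr mice 25 days old, with no treatment named in the labels. They were collected as 3 pools of about 280 cells, which form a single group, and their chromatin was digested with a nuclease and pulled down without cross-linking (native ChIP-seq at ultra-low input). Less antibody went into replicate 2. Each pool mixes oocytes of several animals, and RNA was not measured in these samples.

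A maternally methylated imprinted promoter receives its DNA methylation while the oocyte grows and keeps it through fertilisation, so that later only the paternal copy of that promoter is active. In growing oocytes such promoters usually lie inside a longer unit that is transcribed from a start further upstream. SETD2 deposits H3K36me3 behind elongating RNA polymerase, and the PWWP domains of the DNA methyltransferases DNMT3A and DNMT3B bind this mark. H3K4me3, the mark of active and CpG-rich promoters, in contrast repels the DNMT3 complex through the ADD domain. In work that the study cites, mutation of the DNMT3A PWWP domain left methylation at H3K36me3 regions of the oocyte unimpaired. The study proposes that the link between H3K36me3 and new methylation there may be indirect. After fertilisation ZFP57, a zinc finger protein, binds the methylated hexamer TGCCGC and helps to keep the imprint.

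For each gene the promoter was set by sequence and annotation and not by H3K36me3. It was the furthest downstream annotated start with at least 50% GC and an observed over expected CpG ratio of at least 0.6 within 500 bases on either side, or, for Snrpn, which had none, the start with the highest ratio. The RefSeq promoters nearest to 5 of these starts (250 bases before to 50 bases after a start, GRCm38.p6) are printed to show how CpG-rich the sequence is that lies under the mark. The ZFP57 hexamer is in capitals and was searched on both strands, as TGCCGC and as GCGGCA. Mest is at chr6:30737800-30738099 on the plus strand, Plagl1 at chr10:13090582-13090881 on the plus strand and Nnat at chr2:157559828-157560127 on the plus strand. Snrpn is at chr7:60005150-60005449 and Peg3 at chr7:6730370-6730669, both on the minus strand. Each is given 5′ to 3′ along its gene.
Mest: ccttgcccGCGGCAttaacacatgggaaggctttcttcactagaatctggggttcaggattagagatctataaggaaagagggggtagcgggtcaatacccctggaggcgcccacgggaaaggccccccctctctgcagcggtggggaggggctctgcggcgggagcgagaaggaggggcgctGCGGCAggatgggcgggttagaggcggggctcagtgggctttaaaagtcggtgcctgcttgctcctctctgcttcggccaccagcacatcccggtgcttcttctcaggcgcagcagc
Plagl1: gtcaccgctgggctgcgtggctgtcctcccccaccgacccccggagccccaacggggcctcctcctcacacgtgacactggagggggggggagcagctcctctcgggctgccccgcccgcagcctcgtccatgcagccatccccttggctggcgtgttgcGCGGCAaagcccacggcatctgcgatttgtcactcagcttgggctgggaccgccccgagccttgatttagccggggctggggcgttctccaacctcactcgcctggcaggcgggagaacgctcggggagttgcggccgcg
Nnat: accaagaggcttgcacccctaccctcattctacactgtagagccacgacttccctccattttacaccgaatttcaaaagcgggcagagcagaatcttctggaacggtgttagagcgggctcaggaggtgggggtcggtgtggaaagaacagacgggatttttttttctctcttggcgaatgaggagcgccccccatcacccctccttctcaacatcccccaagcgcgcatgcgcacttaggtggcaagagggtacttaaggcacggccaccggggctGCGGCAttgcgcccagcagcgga
Snrpn: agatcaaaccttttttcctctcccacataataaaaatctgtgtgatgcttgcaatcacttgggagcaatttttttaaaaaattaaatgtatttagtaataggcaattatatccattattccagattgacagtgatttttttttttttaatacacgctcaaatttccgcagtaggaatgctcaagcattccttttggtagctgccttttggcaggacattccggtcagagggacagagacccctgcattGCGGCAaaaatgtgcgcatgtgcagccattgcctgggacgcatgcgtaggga
Peg3: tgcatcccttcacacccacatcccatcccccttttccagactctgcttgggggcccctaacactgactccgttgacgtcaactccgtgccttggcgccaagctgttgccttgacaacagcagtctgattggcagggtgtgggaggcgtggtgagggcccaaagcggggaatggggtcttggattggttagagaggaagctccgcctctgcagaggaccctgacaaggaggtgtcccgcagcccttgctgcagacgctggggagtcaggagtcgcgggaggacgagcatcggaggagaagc

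These 300 bases held 17 CpGs at Mest, 26 at Plagl1, 17 at Nnat, 7 at Snrpn and 13 at Peg3. The hexamer occurred 2 times at Mest, 1 time each at Plagl1, Nnat and Snrpn and 0 times at Peg3, on the minus strand of the gene in each case. RefSeq promoters near the rule's start were found for 7 genes. The remaining ones were Zrsr1 and Commd1, both without the hexamer, and the Zrsr1 entry belongs to a start 1.21 kb upstream of the rule's start that was merged with it. Grb10, Peg10 and Impact had no RefSeq entry at that start. Thus 4 of 7 held the hexamer, against 11.6% of 32851 RefSeq promoters. The hexamer holds a CpG, and the median RefSeq promoter had 7 CpGs, so this background is not matched for CpG content. In the wider stretch of 500 bases on either side of the start, 9 of 10 genes held it, all but Impact, against 58.8% of 11147 CpG-rich protein-coding starts. At least 3 copies were found in 6 genes, against 8.76% of those starts. The stretches of Zrsr1 and Commd1 overlap, so the 9 genes are not all separate cases. The largest number was 10 copies, at Mest. A match in this window is a description of the letters and not of binding.

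The 3 libraries held 7888140, 2692510 and 3166564 reads over the valid windows, in the order of replicates 1, 2 and 3, recovered from the deposited values. A single read in a window was worth 0.136, 0.396 and 0.338 RPKM in replicates 1, 2 and 3. The 440 windows held 11343 reads in all. The study called a window enriched when its RPKM was above 1, and here that is the mean of the 3 replicates. Marker genes were examined as a check of the label. The bodies of all 5 oocyte genes examined (Gdf9, Bmp15, Zp3, Kit, Nobox) were above 1, between 2.13 and 3.82 RPKM, and those of 0 of 5 granulosa cell genes (Fshr, Amh, Cyp19a1, Inha, Foxl2), between 0.353 and 0.991 RPKM. Of the latter, Amh had a start window at 1.79 RPKM. Among all 20450 protein-coding genes, 53.6% had a body above 1, so a body above 1 does not by itself set an oocyte gene apart. The bodies of Amh, Inha and Foxl2 are a single window each. The Amh body, at 0.991 RPKM, and the Inha body, at 0.645 ± 0.473, differed from 1 by less than their SDs over the replicates. Whether these bodies are enriched is therefore undecided.

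Across the 440 windows the mean was 2.06 ± 0.194 RPKM (SD, n = 3), against 0.902 over all valid windows. Enriched windows numbered 333, or 75.7%, against 31.8% of all valid windows, and 271 of them were above 1 in each replicate. The share of enriched windows per gene and its flanks was 93.2% for Grb10, 88.6% for Peg3, 87.4% for Snrpn, 82.6% for Zrsr1, 81.2% for Commd1 and 80.8% for Mest. It was lower for Nnat (68.2%), Plagl1 (64.3%), Impact (47.5%) and Peg10 (25.0%). The gene body itself was enriched in all 10 genes, against 53.6% of 20450 protein-coding genes. The bodies lay close together, from 2.12 ± 0.259 RPKM at Snrpn to 3.50 ± 0.784 at Zrsr1, with a median of 2.61. The body of Nnat is a single window, the start window itself.

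The start window, the 2 kb that hold the promoter, was enriched in all 10 genes, with a median of 3.68 RPKM and a range from 1.26 to 7.44. Among 11147 CpG-rich protein-coding starts, 27.8% were enriched, with a median of 0.623 RPKM and quartiles of 0.317 and 1.07. Among the first annotated starts of 20785 protein-coding genes, CpG-rich or not, 22.8% were enriched. In 9 of the 10 genes each replicate was above 1, all but Peg10, against 11.8% of CpG-rich starts. The mark also ran across the promoter, with the start window and both neighbouring windows enriched, in 9 of 10 genes, all but Peg10, against 13.1%. Commd1 and Zrsr1 share a start window, so these counts hold 9 separate promoters, of which 9 were enriched and 8 were enriched across. The start that the rule gave for Commd1 has 1 annotated transcript. The other CpG-rich start of Commd1, 9.39 kb upstream, has 3 transcripts and held 0.294 RPKM with an H3K4me3 call.

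H3K4me3 and H3K27me3 calls came from libraries that the laboratory had published before, with 1 call per window. H3K4me3 was called in the start window of 1 of the 10 genes, Peg10, against 98.0% of CpG-rich starts. Enrichment of H3K36me3 without a call of H3K4me3 was found in 9 of 10, against 174 CpG-rich starts or 1.56%. H3K27me3 was called at 0 of 10 start windows, against 24.1%. Because there is a single call per window, no replicate error can be given for these counts.

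**Figure D1:**
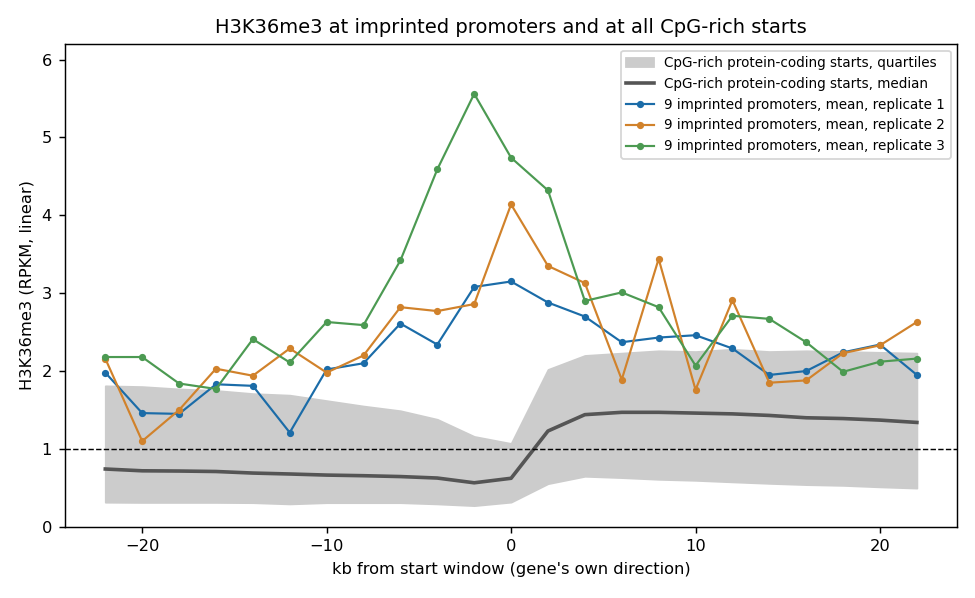
H3K36me3 (RPKM, linear axis) by distance from the start window in kb, in the gene's own direction, as the mean of the 9 separate imprinted promoters in each replicate (coloured lines) and as the median and quartiles of the CpG-rich protein-coding starts (grey). At the start window the imprinted promoters lie at 3.15, 4.14 and 4.74 RPKM in replicates 1, 2 and 3, where the grey median is at 0.623.

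The shape around the promoter was set beside that of CpG-rich starts, without a test. At CpG-rich starts the median fell from 0.742 RPKM at 22 kb upstream to 0.565 in the window just upstream, and stood at 1.44 at 4 kb downstream. Over the 9 separate imprinted promoters, the median was 4.37 RPKM in the window just upstream, 3.68 in the start window and 3.29 in the window just downstream. Peg10 was the lowest of the 9 in the window just upstream, at 0.272 RPKM. The low point at the start that the median of CpG-rich starts shows was not seen in the median of the imprinted promoters.

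Mest, Peg3, Snrpn, Plagl1, Peg10, Impact, Nnat and Zrsr1 are active from the paternal copy, whereas Grb10 is active from the maternal copy in most tissues and Commd1 is biased to it. In the text below, the values in the start window are given in the order of replicates 1, 2 and 3.

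Snrpn, which encodes a protein of small nuclear ribonucleoproteins and lies at chr7:59982495-60140219 on the minus strand, had the highest mean. Its start window held 3.94, 9.91 and 8.46 RPKM, or 7.44 ± 3.11 (SD, n = 3) from 79 reads. Replicate 1 was the lowest and still above 1. Peg3, a zinc finger gene at chr7:6703892-6730431 on the minus strand, held 5.43, 6.34 and 8.46 RPKM, or 6.74 ± 1.55 from 81 reads. All replicates were high, and the mean of 0 of the 11147 CpG-rich starts was higher. The window is shared with Usp29, a deubiquitinase gene that begins on the other strand. The Usp29 body averaged 0.819 RPKM over 116 windows, of which 25 were enriched and 72 were called for H3K27me3. The 20 kb upstream of Peg3, at 2.94 RPKM, lie within that body near its start. In the next window upstream of Peg3 replicate 3 reached 13.9 RPKM, replicate 1 stood at 4.48 and replicate 2 at 3.57.

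Plagl1, which encodes a zinc finger transcription factor and lies at chr10:13060504-13131694 on the plus strand, held 3.12, 4.76 and 7.11 RPKM, or 5.0 ± 2.00 from 56 reads. Only 5 of the CpG-rich starts had a higher mean. Grb10, an adaptor of the insulin receptor that restrains growth, lies at chr11:11930508-12038683 on the minus strand. Its start window held 2.99, 5.95 and 4.74 RPKM, or 4.56 ± 1.49 from 51 reads, and 15 CpG-rich starts were higher. In both genes replicate 1, the most deeply sequenced library, was the lowest of the 3.

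Zrsr1, a retrogene for a splicing factor related to U2AF, lies at chr11:22972005-22976496 on the plus strand within Commd1 at chr11:22896136-22982382 on the minus strand. Commd1 encodes a protein of copper metabolism and endosomal sorting. Their shared window held 3.53, 2.77 and 4.74 RPKM, or 3.68 ± 0.990 from 47 reads, and 59 CpG-rich starts were higher. Impact, an inhibitor of the GCN2 stress kinase at chr18:12955852-12992950 on the plus strand, held 3.53, 2.38 and 3.05 RPKM, or 2.98 ± 0.579 from 41 reads. For Impact the mean was exceeded by 165 CpG-rich starts.

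Nnat, neuronatin, a small membrane protein of brain and fat, lies at chr2:157560078-157562522 on the plus strand inside Blcap. Its start window held 1.63, 1.98 and 4.06 RPKM, or 2.56 ± 1.31 from 29 reads, with replicate 3 apart from the others. Mest, a member of the alpha/beta hydrolase family at chr6:30723547-30748465 on the plus strand, held 1.90, 2.38 and 1.35 RPKM, or 1.88 ± 0.513 from 24 reads. Peg10, a gene derived from a retrotransposon and needed in the placenta, lies at chr6:4747306-4760517 on the plus strand. It held 2.31, 0.793 and 0.677 RPKM, or 1.26 ± 0.910 from 21 reads, so that only replicate 1 was above 1. CpG-rich starts with a higher mean numbered 336 for Nnat, 902 for Mest and 2137 for Peg10. In the order Snrpn, Peg3, Plagl1, Grb10, Zrsr1 with Commd1, Impact, Nnat, Mest and Peg10, no neighbours differed by more than the larger of their SDs.

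**Figure D2:**
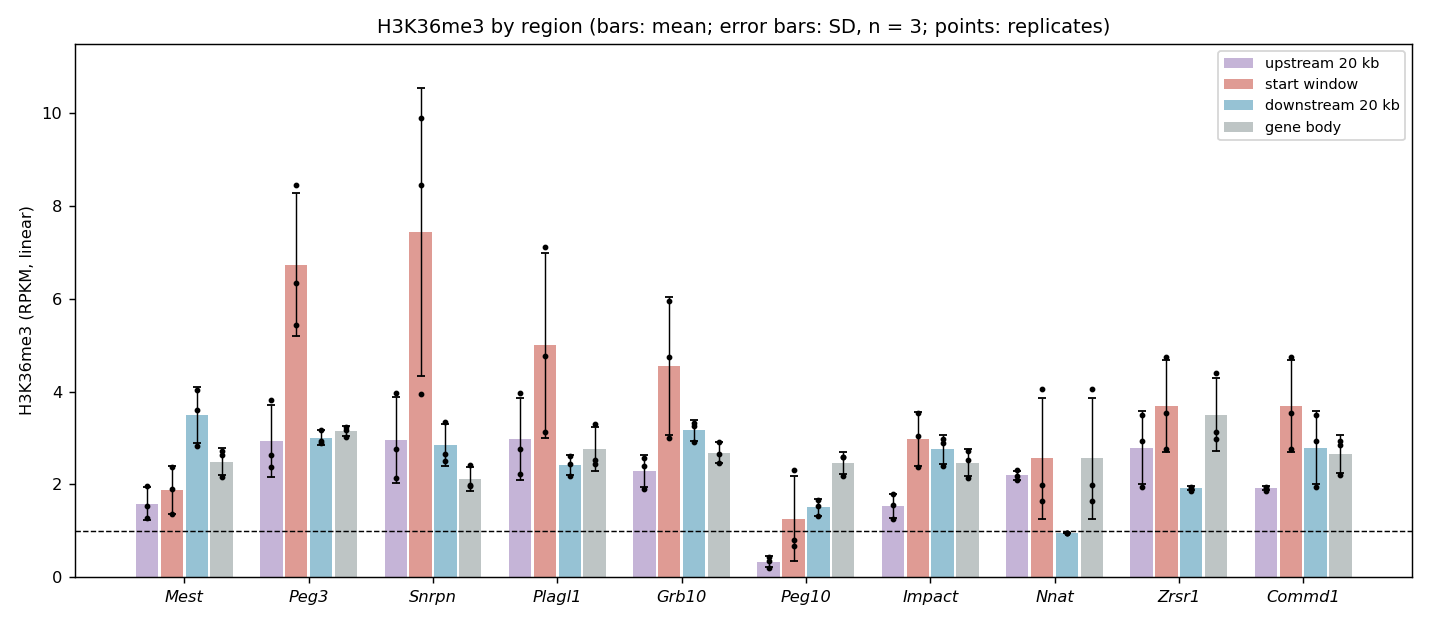
H3K36me3 (RPKM, linear axis from 0) of each gene over the 20 kb upstream, the start window, the 20 kb downstream and the gene body; bars are means, error bars SD over 3 replicates and points the replicates. The start window is the tallest bar for Snrpn (7.44), Peg3 (6.74), Plagl1 (5.0), Grb10 (4.56), Zrsr1 and Commd1 (3.68) and Impact (2.98), and the downstream bar is the tallest for Mest (3.49).

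In each replicate the promoter was compared with its surroundings by the log2 ratio of the mean over the start window and its neighbours to the mean over 20 kb on both sides beyond them. A pseudocount of 0.1 RPKM was added. The mean ratio was above 0 in 10 of 10 genes, against 24.0% of CpG-rich starts, whose median was -0.445. It was above 0 in every replicate in 8 genes, all but Mest and Peg10. Zrsr1 and Commd1 use the same windows, so their ratios are identical and the 10 genes hold 9 separate promoters. The largest log2 ratios were 1.07 ± 0.43 (SD, n = 3) at Peg3, 0.94 ± 0.43 at Snrpn and 0.83 ± 0.27 at Nnat. They were followed by 0.63 ± 0.34 at Plagl1, 0.58 ± 0.49 at Impact, 0.50 ± 0.33 at Grb10 and 0.47 ± 0.41 at Zrsr1 and Commd1. Mest, at 0.18 ± 0.24, and Peg10, at 0.08 ± 0.89, did not exceed their spread. With 3 replicates the two-sided exact sign-flip permutation test cannot give a p under 0.25, and its lowest value adjusted over the 10 genes by the Benjamini-Hochberg method was 0.3125. None of these ratios could therefore pass 0.05, and Zrsr1 and Commd1 entered the adjustment as separate tests.

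Transcription that passes through a promoter from further upstream leaves H3K36me3 on both sides of it. The 20 kb upstream were enriched in 9 of 10 genes, all but Peg10, against 43.9% of 11144 CpG-rich starts, whose median was 0.810 RPKM. They averaged 2.98 ± 0.891 RPKM at Plagl1, 2.96 ± 0.924 at Snrpn, 2.94 ± 0.776 at Peg3, 2.79 ± 0.784 at Zrsr1 and 2.29 ± 0.346 at Grb10. Lower levels were found at Nnat (2.19 ± 0.105), Commd1 (1.91 ± 0.0412), Mest (1.58 ± 0.351) and Impact (1.53 ± 0.261). Peg10 stood at 0.331 ± 0.118 RPKM, with 0 of 10 upstream windows enriched and 9 of them called for H3K27me3. H3K36me3 carries no strand and RNA was not measured, so which unit the mark belongs to was not tested.

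**Figure D3:**
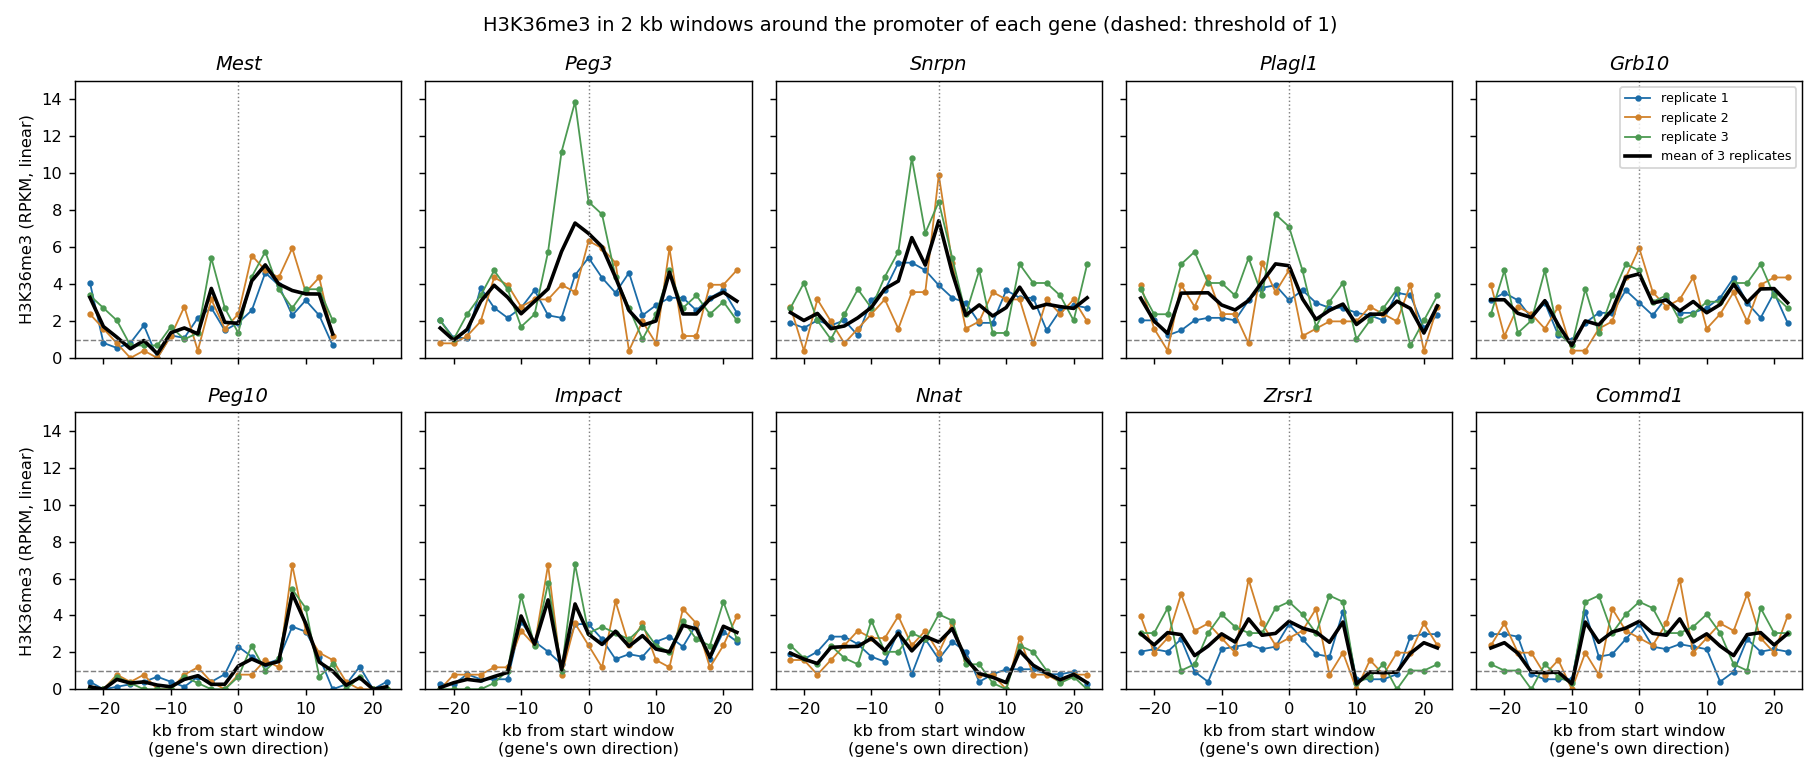
H3K36me3 (RPKM, linear axis) in 2 kb windows from 22 kb upstream to 22 kb downstream of the start window of each gene, in the gene's own direction, for the 3 replicates (coloured) and their mean (black); the dashed line is the threshold of 1. Peg3 and Snrpn peak at or next to the start (7.31 and 7.44 RPKM), Peg10 peaks 8 kb downstream (5.18) with low values upstream, and Nnat is high upstream and low downstream.

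The mean log2 ratio of upstream to downstream H3K36me3 was positive for Nnat, at 1.13 ± 0.057 (SD, n = 3), and for Zrsr1, at 0.49 ± 0.42, in all replicates. It was negative in all replicates for Peg10 (-1.93 ± 0.43), Mest (-1.10 ± 0.43, with only 6 of the 10 downstream windows in the table), Impact (-0.81 ± 0.12), Commd1 (-0.49 ± 0.42) and Grb10 (-0.46 ± 0.25). Plagl1 (0.26 ± 0.46), Snrpn (0.03 ± 0.23) and Peg3 (-0.05 ± 0.41) did not keep one sign over the replicates. Commd1 and Zrsr1 use the same flanks in opposite directions, so their values mirror each other. The lowest adjusted p of these exact sign-flip permutation tests was 0.357. The median over CpG-rich starts was -0.460, so the balance at Grb10 and Commd1 was near that of CpG-rich starts in general.

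The downstream 20 kb were enriched in 9 of 10 genes, against 69.0% of CpG-rich starts, whose median was 1.57 RPKM, and the exception was Nnat at 0.945 ± 0.00741 RPKM. The host gene Blcap, named for its association with bladder cancer, begins downstream of Nnat on the other strand. The first annotated start of Blcap held 0.362 RPKM and was called for H3K4me3, whereas the Blcap body averaged 1.79 ± 0.281 RPKM. The H3K36me3 upstream of Nnat, at 10 of 10 enriched windows, continued beyond the 3′ end of Blcap.

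Enriched windows that follow one another without a gap were joined to runs, a window missing from the deposited table counting as a gap, and the run that holds the promoter was measured. Run length was 90 kb for Zrsr1 and Commd1, 74 kb for Snrpn, 70 kb for Plagl1, 52 kb for Peg3, 42 kb for Grb10, 36 kb for Impact, 28 kb for Nnat, 26 kb for Mest and 14 kb for Peg10. These lengths rest on the mean of the replicates. With windows above 1 in each replicate they fell to 16 kb for Zrsr1 and Commd1, 26 kb for Snrpn, 22 kb for Plagl1, 24 kb for Peg3 and 8 kb for Nnat. They were 30 kb for Grb10, 26 kb for Impact and 18 kb for Mest, and the start window of Peg10 was in no such run. The order of the lengths therefore does not hold between both rules. The runs of Mest and Grb10 end downstream at windows that are missing from the deposited table, so their lengths are lower limits. Of all 75026 runs in the genome, 0.950% were at least as long as that of Zrsr1 and Commd1, and 19.7% at least as long as that of Peg10. A run picked because it holds a given window tends to be long, so these shares overstate how unusual the lengths are. Runs that hold other CpG-rich starts were not measured. Every promoter but that of Peg10 lay at least 8.79 kb inside its run or, for Nnat, 5.92 kb.

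**Figure D4:**
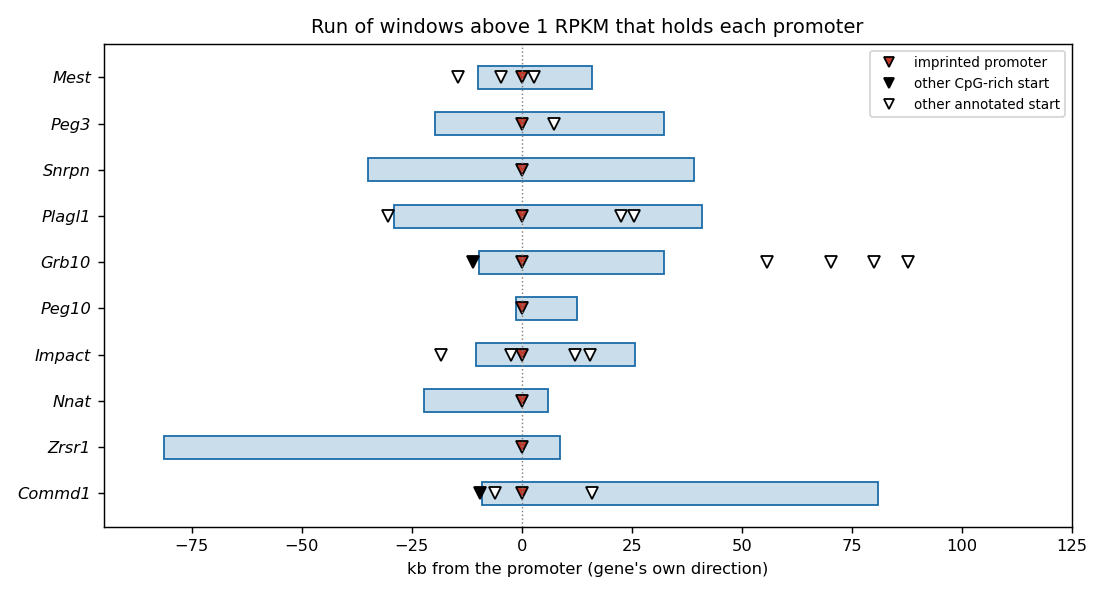
Extent of the run of windows above 1 RPKM that holds each promoter (bars), in kb from the promoter in the gene's own direction, with the promoter (red triangles), other CpG-rich starts (black) and other annotated starts (white; the distant first start of Snrpn is outside the plot). The runs of Plagl1, Grb10 and Commd1 begin 29.0, 9.68 and 9.14 kb upstream of the promoter, just inside another annotated start of the gene, while that of Peg10 begins 1.41 kb upstream.

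The upstream ends of these runs were set against the other annotated starts of the genes. At Plagl1 the run began 29.0 kb upstream of the promoter, and the first annotated start lay 30.5 kb upstream. At Grb10 the run began 9.68 kb upstream and another CpG-rich start lay 11.1 kb upstream. For Commd1 these distances were 9.14 and 9.39 kb. In these 3 genes the run ended within 1 window of the upstream start. At Impact the first start lay 18.4 kb upstream and the run began 10.3 kb upstream, and at Mest the first start, 14.5 kb upstream, also lay outside the run. At Snrpn the run began 34.9 kb upstream, far from the first start 135 kb upstream. So 3 of the 6 genes with an upstream start had a run that began next to it and 3 did not. Only 27.8% of CpG-rich starts and 22.8% of first annotated starts were enriched, so most such starts would end a run. At Grb10 the gap was 1 window at 0.675 RPKM, with 1.78 RPKM in the window beyond it. How often runs begin next to a start at other genes was not computed.

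The upstream CpG-rich start or, failing that, the first annotated start of the same gene was compared with the imprinted promoter. The CpG-rich upstream start of Grb10, with 149 CpGs within 500 bases on either side against 113 at the promoter, held 0.951, 0.396 and 0.677 RPKM, or 0.675 ± 0.277 from 10 reads. The log2 ratio of the promoter to this start was 2.60 ± 1.0 (SD, n = 3). The upstream CpG-rich start of Commd1, with 52 CpGs against 70, held 0.543, 0 and 0.338 RPKM from 5 reads, and the log2 ratio was 3.60 ± 1.2. That ratio was 2.43 with a pseudocount of 0.5, and 0.99 when the neighbouring windows of both starts were included, which for Grb10 gave 1.36. Both starts were called for H3K4me3 and were below 1 in every replicate, whereas the promoters were above 1 in every replicate and had no H3K4me3 call.

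At genes without a second CpG-rich start, the first annotated start was used. It held 0.874 ± 0.123 RPKM at Plagl1, 0.497 ± 0.436 at Mest and 0.355 ± 0.403 at Impact, each with an H3K4me3 call. The log2 ratios of the promoter to this start were 2.32 ± 0.45, 2.22 ± 2.1 and 3.25 ± 1.8. At Snrpn, whose first annotated start is 135 kb upstream, the first start held 1.49, 3.57 and 0 RPKM, was called for H3K36me3 and not H3K4me3, and the log2 ratio was 3.07 ± 2.9. The promoter was higher in 3 of 3 replicates in all 6 genes, with an exact sign-flip permutation p of 0.25, the smallest possible, in each. The comparison was added after the values were seen, and no share over other genes with several starts was computed. At CpG-rich starts in general the median was 0.623 RPKM in the start window and 1.44 at 4 kb downstream. A window further downstream is thus higher there too, so this count does not by itself set the imprinted promoters apart. The sizes of the ratios depended on single libraries, with 1.39 at Snrpn without replicate 3 and 1.02 at Mest without replicate 2, the libraries with 0 reads at the upstream start. With a pseudocount of 0.5 the 6 ratios lay between 1.35 at Mest and 2.43 at Commd1. Including the neighbouring windows gave 1.26 at Plagl1. These starts rest on 4 to 20 reads, and the zeros among them allow up to 3 reads in that library. Starts between these and the promoter were enriched, at 1.31 RPKM for Mest with calls of both marks, 1.06 for Impact and 2.54 for Commd1 with H3K36me3 alone. All 11 annotated starts downstream of a promoter were enriched as well, from 1.13 RPKM at the last start of Grb10 to 4.18 at the last start of Mest, and 0 of them had an H3K4me3 call. Enrichment is common there, in 57.8% to 64.0% of windows 2 to 22 kb downstream of CpG-rich starts. The downstream starts of Plagl1 and Grb10 lie beyond that range, 22.5 to 87.7 kb from the promoter. That of Mest lies in the window just downstream of the promoter. None of the 11 was CpG-rich, and the share of H3K4me3 calls at such starts was not computed.

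**Figure D5:**
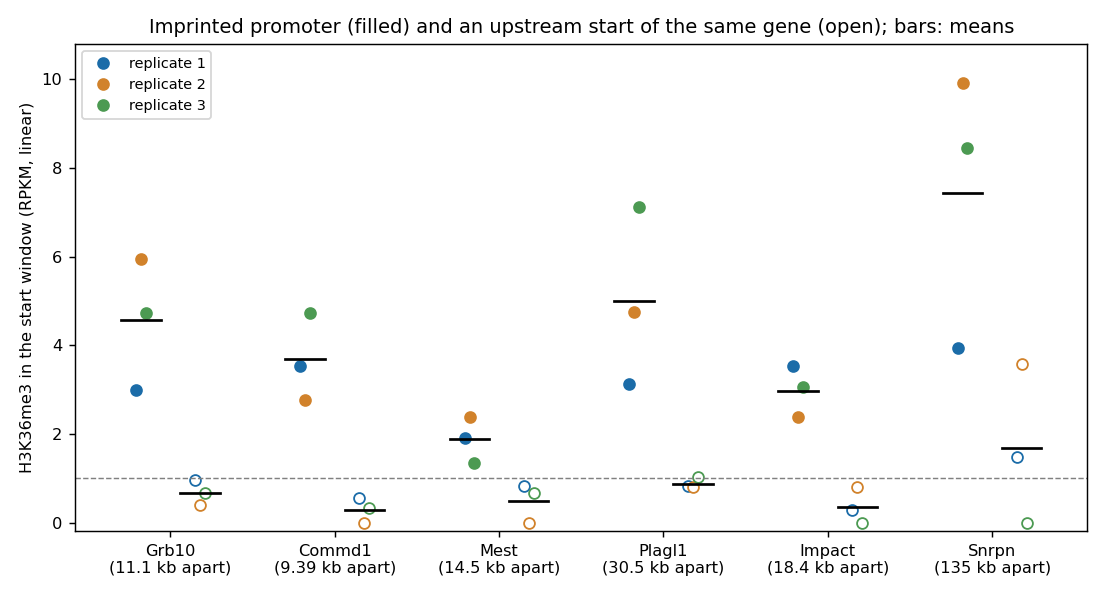
H3K36me3 in the start window (RPKM, linear axis) of the imprinted promoter (filled) and of an upstream start of the same gene (open) in the 3 replicates, with means as bars, for the 6 genes that have another start upstream. In each gene the filled points of a replicate lie above its open point, and the open means run from 0.294 at Commd1 to 1.69 at Snrpn.

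Within 22 kb of the promoter, enriched windows were found beyond the upstream start of 3 genes too. The first starts of Plagl1 and Snrpn lie further out and are not covered by this count. The enriched windows lay between 1.78 and 3.15 RPKM at 12 to 22 kb upstream of the promoter for Grb10. At 18 to 22 kb upstream they held 1.95, 2.52 and 2.24 RPKM for Commd1, and 1.12, 1.70 and 3.28 for Mest. At Snrpn, 56 of 64 windows of the body upstream of the promoter were enriched, with a mean of 1.84 ± 0.196 RPKM, and 10 of 10 windows downstream, with 2.84 ± 0.453. Snurf, which shares the promoter and part of the transcript of Snrpn, had a body of 3.90 ± 0.956 RPKM. At Mest the body upstream of the promoter averaged 1.54 ± 0.245 RPKM and the body downstream 4.23 ± 0.716. The highest window of the Mest run, at 5.04 RPKM, lay 4 kb downstream of the promoter. Copg2, which converges on Mest from the other strand, had a body of 2.00 ± 0.109 RPKM and a start of 0.755.

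Peg10 was the exception in several of the counts above. Its promoter lies in the same window as the start of Sgce, a sarcoglycan gene on the other strand. The body of Sgce averaged 0.302 ± 0.0514 RPKM, with 30 of 37 windows called for H3K27me3. Peg10 itself was marked over its body, at 2.45 ± 0.238 RPKM with 6 of 6 windows enriched, and the highest window of 5.18 RPKM lay 8 kb downstream of the promoter. Other neighbours also lacked the mark in part. Ddc, the dopa decarboxylase gene downstream of Grb10, had a body of 0.373 ± 0.145 RPKM with 34 of 42 windows called for H3K27me3. Zim1, a zinc finger gene beside Peg3, had a body of 2.19 ± 0.235 RPKM and a start of 0.294, called for H3K4me3.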

How the data were processed

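H3K36me3 was measured by ChIP-seq in 3 replicate pools of GV oocytes, which the labels do not tie to animals, so the spread between them may be partly technical. Reads were trimmed, aligned by the authors to GRCm38 with Bowtie2 2.2.9 (submitters' processing notes) and quantified over 2 kb windows in SeqMonk. The authors removed windows with very low or very high input. Removal of duplicate reads is not stated. The deposited RPKM values (by the authors' name, linear) are whole multiples of the value of 1 read in 100% of cases at a tolerance of 0.01 read. Whether they are also divided by window length could not be settled, and they are read as proportional to CPM in windows of equal size. A second deposited table names the marks called in each window. Its H3K36me3 call equals a mean RPKM above 1 in every window (0 differences).

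The 10 genes, the neighbours, the marker lists and the lists of other imprinted genes were chosen with earlier results of these data known, and all 10 are described. Genes and starts came from GENCODE M21, with starts under 2 kb apart merged. A body was the mean of windows with their midpoint in the gene. Ratios used 3 promoter windows, 20 kb on each side and a pseudocount of 0.1. The comparison with upstream starts was added after the values were seen. Tests were two-sided exact sign-flip permutation tests over 3 replicates. Intervals were not computed, and SDs include counting error. Alternatives were other pseudocounts (0.5 and 0.01), 10 kb flanks, a minimum of 5 reads, the furthest upstream start, a threshold of 2 and leaving out each replicate. Python 3.11.15, NumPy 2.4.6, pandas 2.3.3 and Matplotlib 3.10.9 were used.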

Additional observations from a re-analysis of the deposited data

How the results depend on the processing

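With the furthest upstream annotated start as promoter, 5 of 10 genes had a promoter above its flanks, 6 an enriched start window and 3 the mark across it. The promoter ratio then turned to -1.34 at Mest, -0.31 at Snrpn, -0.45 at Grb10, -2.31 at Impact and -0.59 at Commd1, and the upstream ratio to -0.76 at Snrpn and -1.95 at Plagl1. By construction this compares other windows. With 10 kb flanks the promoter ratio was -0.08 at Mest and -0.57 at Peg10, and the upstream ratio 0.20 at Peg3 and 0.06 at Impact. With windows of at least 5 reads Peg10 was at -0.51, and with the start window alone Mest was at -0.31. Leaving out each replicate in turn moved the Peg10 promoter ratio between -0.33 (without replicate 1) and 0.55, the Peg3 upstream ratio between -0.28 and 0.12 (without replicate 1) and the Snrpn upstream ratio between -0.08 (without replicate 3) and 0.15. The cause was not tested. Run lengths moved by over 1.5 times in 7 genes when each replicate had to be above 1. Of 262 recomputed values, 236 kept their direction or, for counts and lengths, stayed within 1.5 times. That limit is wide for counts out of 10. Genes with an enriched upstream flank fell from 9 to 6 at a threshold of 2, which stayed within it. Genes with a negative upstream ratio fell from 6 to 4 with 10 kb flanks, also within it. Zrsr1 and Commd1 share windows and both enter the 262 values.

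No paired analysis was possible because all samples belong to 1 group. A value above 1 takes only 3 reads in replicates 2 and 3 against 8 in replicate 1, so single windows are imprecise.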

Other observations

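Other imprinted genes were counted in the same way. Of 12 further genes at maternally methylated loci, 9 had an enriched start window, against 27.8% of CpG-rich protein-coding starts. Their median was 2.08 RPKM, and not all of the 12 starts were CpG-rich. Nap1l5 and Herc3 share a start window, so 8 of 11 separate windows were enriched. In the body, 11 of 11 genes with a window were enriched, with a median of 2.57 RPKM, against 53.6% of protein-coding genes. Start windows of 4.28 ± 2.16 RPKM at Mcts2, 4.27 ± 0.771 at Airn, 3.63 ± 0.806 at Peg13 and 2.94 ± 0.721 at Kcnq1ot1 were among the enriched ones. The 3 start windows that were not enriched were those of Igf2r (0.894 ± 0.265 RPKM), H13 (0.317 ± 0.549) and Nespas (0.603 ± 0.236), and all 3 were called for H3K4me3, as were 2 of the enriched ones, Gnas (1.42 ± 0.838) and Trappc9 (1.66 ± 0.342). Igf2r and H13 host the promoters of Airn and Mcts2 in their bodies, which averaged 3.05 ± 0.297 and 2.95 ± 0.346 RPKM. The furthest upstream start of Nespas held 5.81 ± 2.57 RPKM. In the other direction, those of Gnas (0.603 ± 0.236 RPKM), Herc3 (0.474 ± 0.511) and Inpp5f (0.868 ± 0.645) were not enriched and were called for H3K4me3.

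Of 5 genes at paternally methylated loci, which gain methylation in the male germline, 0 had an enriched start window (median 0.226 RPKM) and 2 an enriched body. These were Meg3, at 3.23 ± 0.193 RPKM, and Rasgrf1, at 2.04 ± 0.273, while H19 (0.181 ± 0.314), Igf2 (0.224 ± 0.129) and Dlk1 (0.335 ± 0.0624) were low. H3K4me3 was called at all 5 starts, against 98.0% of CpG-rich starts. For H3K36me3, 27.8% of CpG-rich starts, 22.8% of first annotated starts and 53.6% of protein-coding gene bodies were enriched. With only 5 genes, counts this near to those shares do not set the paternally methylated loci apart.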
